A study of Rattus norvegicus with 6 samples.

Results

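Stretches of open chromatin that were called in each of the 3 WT INS-1 libraries, not called in untreated Med14 S983A mutant cells and called in the mutant after FSK numbered 5116 of the 220487 merged ATAC-seq peaks outside the mitochondrial genome. These regained peaks made up 2.32% of all peaks and 4.56% of the 112155 peaks called in every WT library (WT-constitutive peaks). They were chosen by the library names that the deposited table lists for each merged peak, so their absence from the untreated mutant and their presence with FSK in the mutant are the definition and not a finding. Whether a peak was also called in mutant cells given Ex-4 was left free, and 3089 of the 5116 (60.4%) were. That share was close to the one over all peaks, since 129417 of the 220487 were called in mutant cells given Ex-4. Of the 112155 WT-constitutive peaks 95742 were called there, and of those not called in the untreated mutant 26.1% were, regained peaks included. Of the peaks in that last group that FSK did not regain, 1937 were called with Ex-4 and 12172 were not, a far lower share than in regained peaks.

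INS-1 is a rat insulinoma line used as a model of the pancreatic beta cell. The 6 libraries crossed WT and Med14 S983A cells with no stimulus (CON), 10 nM Ex-4 or 10 µM FSK, both for 1 h after transfer to serum-free medium, with 1 library per condition. In Med14 S983A cells the serine at that position of the endogenous protein was changed to alanine by CRISPR. Per the study's methods, experiments were replicated over more than 1 independently made mutant line; which of these gave each ATAC-seq library, and whether cultures were pooled, is not stated in the sources used here. WT and mutant cells therefore differ by line as well as by the mutation, and these cannot be told apart. With 1 library per condition no difference has a replicate check, so sizes are given without p-values, and intervals for single peaks are exact Poisson 95% intervals that cover counting error only.

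ATAC-seq measures where a transposase can reach DNA, which in beta cells marks promoters and enhancers bound by transcription factors. Ex-4 activates the GLP-1 receptor, which raises cAMP through adenylate cyclase, while FSK activates the cyclase directly; cAMP frees the catalytic subunit of protein kinase A, which phosphorylates CREB. Mediator is the complex that joins enhancer-bound factors to RNA polymerase II, and Med14 is the scaffold subunit that links its modules.

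Reads inside peaks ranged from 134300000 in Med14 S983A CON to 251200000 in WT FSK, with 163000000 in Med14 S983A FSK. The deepest library also had the most calls, 169448 in WT FSK against 119021 in the untreated mutant and 144166 in the mutant after FSK. Levels are in FPKM, reads per kilobase of peak scaled to the reads inside that library's own peaks. A peak missing from a library's list carries no level from it: it is listed at 0, which gives neither its true accessibility nor a fold. Of the 5116 regained peaks, 6 had a value in Med14 S983A CON without a call, the highest at 0.138 FPKM, and the rest were listed at 0 there.

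The regained peaks were weak sites in mutant cells and of modest strength in WT. Their median level was 2.66 FPKM in WT CON, 2.85 FPKM in WT Ex-4 and 4.86 FPKM in WT FSK, against 2.01 FPKM in Med14 S983A FSK. The 86576 peaks called in all 6 libraries stood higher, with a median of 8.77 FPKM in WT CON and 7.42 FPKM in Med14 S983A FSK. Among the regained peaks called with Ex-4 in the mutant, Ex-4 gave a median of 1.70 FPKM in Med14 S983A cells and FSK one of 2.32 FPKM. In the other 2027 peaks Med14 S983A FSK had a median of 1.63 FPKM. In WT CON these groups were alike, at 2.68 and 2.65 FPKM.

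**Figure D1:**
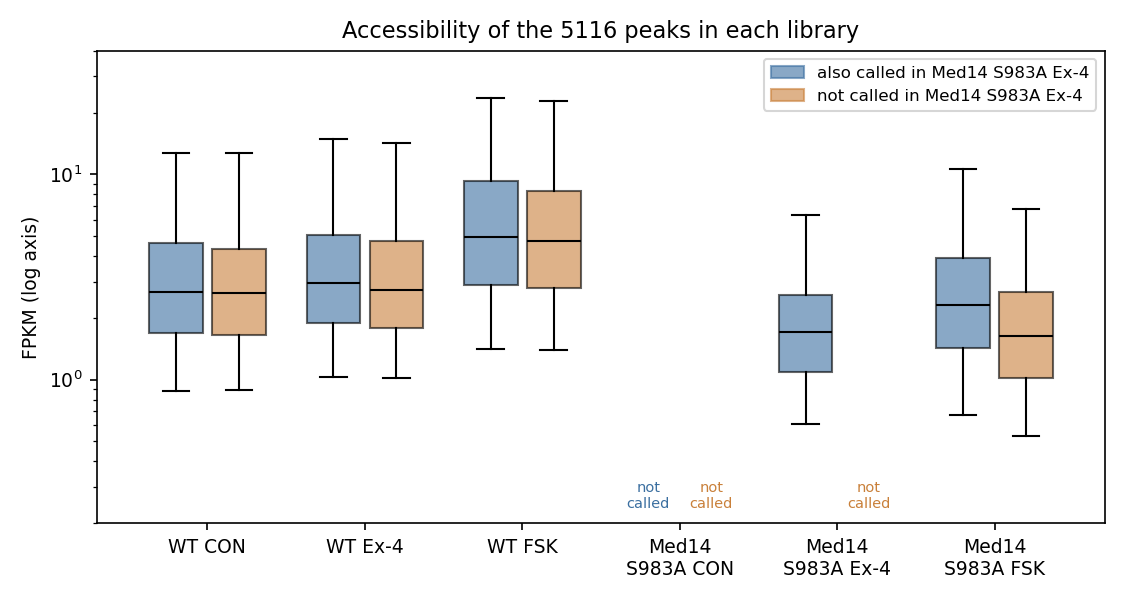
FPKM (log axis) of the regained peaks in each library, split by whether the peak was also called in Med14 S983A Ex-4 (3089 peaks, blue) or not (2027 peaks, orange). Boxes span the quartiles with the median as a line, whiskers run from the 5th to the 95th percentile of peaks, and libraries in which the peaks were not called have no box; both groups overlap in WT, where the medians rise from 2.68 and 2.65 FPKM in CON to 4.94 and 4.75 FPKM in FSK.

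Many regained peaks lay close to the limit of calling. The weakest 5 in Med14 S983A FSK had 0.193 to 0.264 FPKM, from 29 to 54 reads, and the weakest 5 WT-constitutive peaks that the untreated mutant shared with its FSK library had 0.138 to 0.257 FPKM in CON. Of the 5116 regained peaks, 1259 (24.6%) had a Med14 S983A FSK level under 1.21 FPKM, the 5th percentile of all peaks called in Med14 S983A CON. At 2 FPKM or more in Med14 S983A FSK there were 2567 regained peaks.

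Regain was set beside loss, since both move a peak across a calling limit. Of the 19225 WT-constitutive peaks that were not called in Med14 S983A CON, FSK brought 5116 (26.6%) into the mutant list. Of the 92930 that were called in Med14 S983A CON, 5556 (5.98%) were not called with FSK, so regained and lost peaks were close in number, at a ratio of 0.921. Counting only mutant calls of at least 2 FPKM, 2567 were regained and 2549 lost, a ratio of 1.01, so which was larger depended on the level asked for. Ex-4 gave 5026 gained (26.1%) and 2214 lost (2.38%), a ratio of 2.27. The ratio under FSK depended on the strength of the peak in WT: among peaks of at least 3 FPKM in WT CON, 2212 were regained and 3852 lost, a ratio of 0.574. A further 12172 WT-constitutive peaks were called in no mutant library, and 1937 were regained with Ex-4 but not with FSK.

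The regained peaks also rose with FSK in WT cells, where the rule required calls in CON and FSK but no difference between them. Their median change from WT CON to WT FSK was 0.65 on the log2(FPKM + 0.5) scale, a 1.56-fold rise, and 3955 of 5116 (77.3%) were above WT CON. At least 2-fold higher in WT FSK were 1831 (35.8%), while 6.96% of all WT-constitutive peaks were. Over the 146906 peaks averaging 1 FPKM or more in the 6 libraries the share was 20.4%. That wider set includes peaks called in only one of the libraries compared, with their listed 0 entered as a level. Its shares therefore mix gained or lost calls with measured changes and are not a like background. At least 2-fold lower were 40 (0.782%), beside 5.48% of WT-constitutive peaks and 7.39% of the peaks at that average. The median of all WT-constitutive peaks in this contrast was -0.15. WT FSK was the deepest library, and the part of depth in the result was not tested. Of the regained peaks, 4870 reached a mean of 1 FPKM over the 6 libraries and 246 did not.

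Other classes of WT-constitutive peaks had medians below no change. Those called in all 6 libraries had a median WT FSK change of -0.13, with 5.94% at least 2-fold higher. Peaks called in no mutant library had a median of -0.26, with 5.78% at least 2-fold higher and 10.9% lower. Those lost with FSK in the mutant went the other way in WT too, with a median of -0.63, 25.4% at least 2-fold lower and 0.306% higher. Peaks regained with Ex-4 but not FSK had a median WT FSK change of -0.30 and 2.12% at least 2-fold higher.

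**Figure D2:**
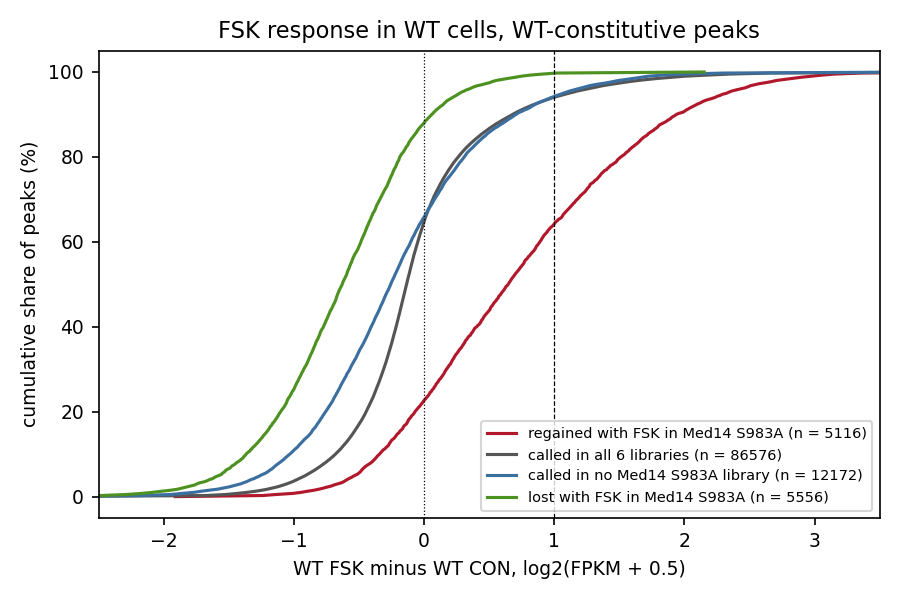
Cumulative share of peaks (%) against the change from WT CON to WT FSK on the log2(FPKM + 0.5) scale, for 4 classes of WT-constitutive peaks. The dotted line marks no change and the dashed line a 2-fold rise; the curve of the 5116 regained peaks lies to the right of the others, with 35.8% of peaks past the dashed line.

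The rise in WT was present in each of the bins of starting level. Below 1 FPKM in WT CON the other classes rose too: the median WT FSK change was 1.64 in regained peaks (n = 366), 0.92 in peaks called in no mutant library (n = 213) and 0.65 in peaks called in all 6 (n = 1026). Regained peaks of 1 to 2 FPKM in WT CON had a median WT FSK change of 0.98 (n = 1382), those of 2 to 4 FPKM 0.45 (n = 1870) and those of 4 to 8 FPKM 0.40 (n = 919). In the same bins, peaks called in no mutant library had medians of 0.17, -0.29 and -0.42. Peaks of 8 FPKM or more showed the same gap, with 0.42 in 579 regained peaks and -0.31 in 2181 peaks called in no mutant library. The bins use the WT CON level that is also subtracted, so the slope across bins is partly built in. Within a bin the classes may still differ in WT CON level, and they were defined by calls in libraries of unequal depth. The part of either in the gap was not tested.

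The response differed between widths. The 626 regained peaks narrower than 200 bp had a median WT FSK change of 0.04, with 4.15% at least 2-fold higher. Those of 400 to 600 bp had a median of 0.98, with 49.4% at least 2-fold higher (n = 1321), and those of 600 bp or more a median of 0.83, with 41.6% (n = 795). Peaks under 200 bp also started higher, at a median of 3.44 FPKM in WT CON beside 2.49 FPKM in the wider ones, and the part of level in the difference was not tested. Peaks of 400 to 600 bp called in no mutant library had a median of -0.27. Of peaks called in no mutant library, 0.656% under 200 bp and 8.62% of 400 to 600 bp were at least 2-fold higher. In peaks called in all 6 libraries these shares were 1.02% and 8.09%. A low share in narrow peaks was thus not particular to regained peaks.

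Ex-4 moved the same peaks little in WT. The median change from WT CON to WT Ex-4 was 0.09, and 111 of 5116 (2.17%) were at least 2-fold higher, beside 0.524% of WT-constitutive peaks. At least 2-fold lower were 6, beside 0.145%. The 1831 peaks at least 2-fold higher in WT FSK had a median of 0.34 with Ex-4, against -0.01 in the other 3285; both changes share the WT CON library.

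The larger the FSK change in WT, the more often a peak missing from Med14 S983A CON was called in Med14 S983A FSK. Of the 1539 such peaks more than 2-fold lower in WT FSK, 2.60% were called. The share was 16.2% of 5393 peaks between -0.5 and 0, 47.6% of 2195 between 0.5 and 1 and 88.3% of 537 peaks at 2 or more on the log2 scale. Calls in Med14 S983A Ex-4 over these bins went from 12.3% to 61.1%, a shallower slope. WT CON medians fell from 4.66 FPKM in the first bin to 1.38 FPKM in the last, and WT FSK medians rose from 1.58 to 9.97 FPKM, so the bins also differ in level; the part of level in the slope was not tested.

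**Figure D3:**
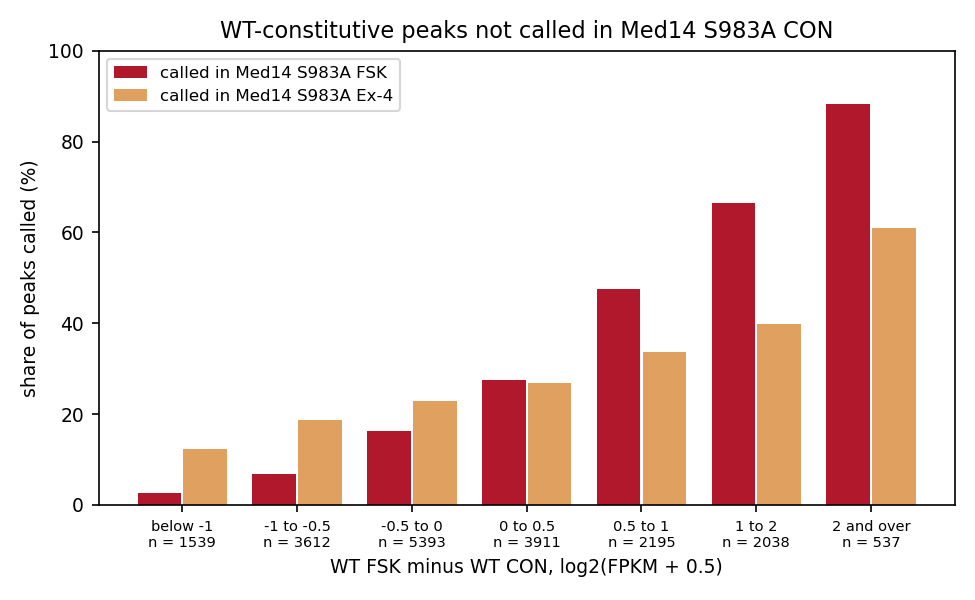
Share (%) of the 19225 WT-constitutive peaks not called in Med14 S983A CON that were called in the mutant with FSK (red) or Ex-4 (orange), by the change from WT CON to WT FSK on the log2(FPKM + 0.5) scale, with the number of peaks under each bin. The red bars climb from 2.60% to 88.3% and the orange bars from 12.3% to 61.1%.

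Regained peaks called and not called with Ex-4 in the mutant had like FSK responses in WT. At least 2-fold higher in WT FSK were 35.6% of the 3089 called with Ex-4 and 36.0% of the 2027 not called, with medians of 0.62 and 0.67. The WT response to Ex-4 was small in both, with a median of 0.11 in those called and 0.06 in those not called. The levels in the mutant differed more: Ex-4 calls covered 45.5% of the 895 peaks under 1 FPKM in Med14 S983A FSK, 65.5% of the 1576 between 2 and 4 FPKM and 76.1% of the 326 at 8 FPKM or more.

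In the mutant, levels with FSK and Ex-4 were within 2-fold of each other at most peaks called with both. The median difference of Med14 S983A FSK from Ex-4 was 0.30 over 3089 peaks, and 498 (16.1%) were at least 2-fold higher with FSK, beside 2.1% of WT-constitutive peaks called in both libraries. At least 2-fold lower were 10, beside 2.37%. The rule required the FSK call, which favours peaks high in that library. The excess was larger in the peaks that FSK had raised in WT: among the 1101 raised at least 2-fold there, the median was 0.88 and 444 (40.3%) were at least 2-fold higher with FSK than with Ex-4. In the other 1988 peaks the median was 0.07, with 2.72% at least 2-fold higher. No share is given for other WT-constitutive peaks that FSK raised in WT, so this excess cannot be called particular to regained peaks.

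Regained peaks stayed below the WT level. Med14 S983A FSK was lower than WT FSK by a median of 0.92 on the log2 scale, a 1.90-fold difference. At or above WT FSK were 597 of 5116 (11.7%), beside 50.1% above it among WT-constitutive peaks called in both libraries. At least 2-fold lower were 2412 (47.1%), with 840 of them at least 4-fold lower, beside 13.5% at least 2-fold lower among WT-constitutive peaks called in both libraries. At least 2-fold higher were 13, beside 3.83%. Peaks near the calling limit in the mutant were admitted by the rule, so these levels describe the selection as well as the cells. Classes chosen in a like way also lay below WT. For peaks lost with FSK, Med14 S983A CON minus WT CON had a median of -0.84, with 43.2% at least 2-fold lower. For peaks regained with Ex-4 but not FSK, Med14 S983A Ex-4 minus WT Ex-4 had a median of -0.87, with 42.8% at least 2-fold lower. Against WT CON, a library without stimulus, Med14 S983A FSK was lower by a median of 0.28; 564 (11%) were at least 2-fold higher, beside 7.97%, and 1296 (25.3%) at least 2-fold lower, beside 17% of WT-constitutive peaks called in both.

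**Figure D4:**
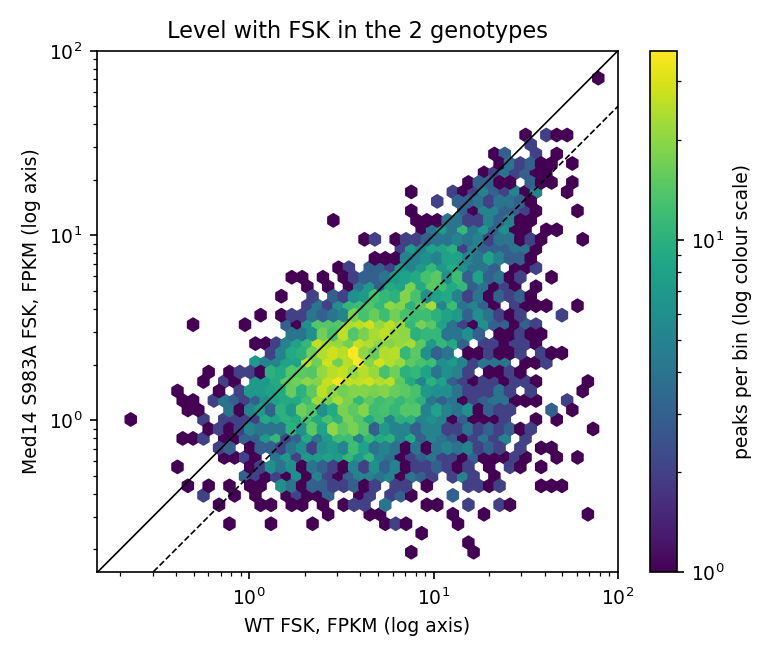
Level of the 5116 regained peaks in Med14 S983A FSK against WT FSK (FPKM, log axes), with the colour of each hexagon giving its number of peaks. The solid line marks equal levels and the dashed line a 2-fold lower level in the mutant; 597 peaks are at or above the solid line and the lower right holds peaks that are strong in WT and near the calling limit in the mutant.

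In the 3089 peaks called with Ex-4 in the mutant, the gap to WT was smaller with Ex-4 than with FSK. Med14 S983A Ex-4 was below WT Ex-4 by a median of 0.53, while over these same peaks Med14 S983A FSK was below WT FSK by 0.80. In Med14 S983A Ex-4, 951 were at least 2-fold lower than in WT Ex-4, beside 12.2%, and 17 at least 2-fold higher, beside 4.54% of WT-constitutive peaks called in both. Across the regained peaks, Pearson's r of the log2 levels was 0.93 between WT CON and WT Ex-4, 0.64 between WT CON and WT FSK and 0.48 between WT FSK and Med14 S983A FSK (n = 5116 peaks). It was 0.78 between Med14 S983A Ex-4 and FSK (n = 3089 peaks). Over the 86576 peaks called in all 6 libraries, the same pairs had 0.98, 0.89, 0.84 and 0.95 in this order. Those peaks covered a higher and wider range. Their quartiles in Med14 S983A FSK were 3.43 and 17.2 FPKM, against 1.22 and 3.36 FPKM in regained peaks. The part of range and read number in the lower r was not tested.

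The strongest regained peak lay at chr7:12406508-12406978 (rn6; 470 bp). It had 17.6 FPKM in WT CON (95% interval 16.6 to 18.6), 49.3 in WT Ex-4 and 78.3 in WT FSK, and in the mutant it was listed at 0 in CON with 31.2 FPKM in Ex-4 and 71.1 FPKM in FSK (69.2 to 73.0). Both stimuli thus gave high levels in both genotypes, and FSK the higher one in each. This peak sat 360 bp from a neighbour that was called in all 6 libraries, at 35.6 FPKM in the untreated mutant and 76.1 FPKM after FSK.

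A distinct pattern was seen at chr18:29229963-29230429 (466 bp), where WT CON was low. Its levels were 2.98 FPKM in WT CON, 5.28 in WT Ex-4 and 38.9 in WT FSK, while Ex-4 gave 8.81 FPKM and FSK 34.7 in the mutant. The FSK level in the mutant was 3.93 times the Ex-4 level. At chr1:259351557-259351799 (242 bp) WT went from 9.52 FPKM in CON through 16.9 in Ex-4 to 45.9 in FSK, and the mutant from 14.9 FPKM in Ex-4 to 36.2 in FSK. Both peaks also lay near one called in the untreated mutant, at 223 bp with 8.47 FPKM there for the first and at 286 bp with 35.8 FPKM for the second.

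The remaining 2 of the 5 strongest were narrow and flat in WT. The 150 bp peak at chr16:19772240-19772390 had 29.9 FPKM in WT CON, 28.4 in WT Ex-4 and 32.8 in WT FSK, against 36.7 FPKM in Med14 S983A FSK, and was listed at 0 in both other mutant libraries. It began 152 bp after a 900 bp peak with 71.9 FPKM in Med14 S983A CON. The 149 bp peak at chr2:198415571-198415720 had 43.1, 45.4 and 51.5 FPKM in WT CON, Ex-4 and FSK, with 34.1 FPKM in Med14 S983A FSK and 0 listed in the other mutant libraries. Across all regained peaks, 931 (18.2%) lay within 1 kb of a peak called in Med14 S983A CON, beside 11.2% of the peaks called in no mutant library and 25.8% of the peaks called in all 6; leaving these 931 out, the median WT FSK change was 0.66.

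Among peaks not called with Ex-4 in the mutant, the next strongest rose with FSK in WT. The peak at chr10:68899537-68899951 (414 bp) had 7.29 FPKM in WT CON, 9.93 in WT Ex-4 and 37.4 in WT FSK, with 26.3 FPKM in Med14 S983A FSK. At chr3:81341445-81341929 (484 bp) the values were 17.3, 19.5 and 38.9 FPKM in WT and 25 FPKM in Med14 S983A FSK. At chr15:28412199-28412480 (281 bp) they were 10.1, 11.9 and 27.0 FPKM in WT and 24.7 FPKM in Med14 S983A FSK.

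The largest FSK rises in WT began from low levels. At chr20:49866585-49867670 (1085 bp) WT went from 0.298 FPKM in CON (95% interval 0.221 to 0.394) to 3.94 in Ex-4 and 13.7 in FSK, while Med14 S983A FSK had 0.730 FPKM (0.609 to 0.867) and Ex-4 was listed at 0. The other 4 of this group were called with Ex-4 in the mutant, and with FSK 1 of them was above WT and 3 below. At chr9:47005169-47005648 (479 bp) the levels were 0.951, 2.89 and 17.7 FPKM in WT and 4.70 FPKM with Ex-4 and 19.0 FPKM with FSK in the mutant. At chr13:101757984-101758471 (487 bp) WT CON and Ex-4 were alike at 0.827 and 0.776 FPKM, WT FSK had 15 FPKM, and the mutant had 1.02 FPKM with Ex-4 and 10.2 FPKM with FSK. In the peaks at chr1:141065818-141066371 and chr1:52689633-52690375, WT FSK had 17.3 and 13 FPKM and Med14 S983A FSK 10.4 and 8.65 FPKM.

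**Figure D5:**
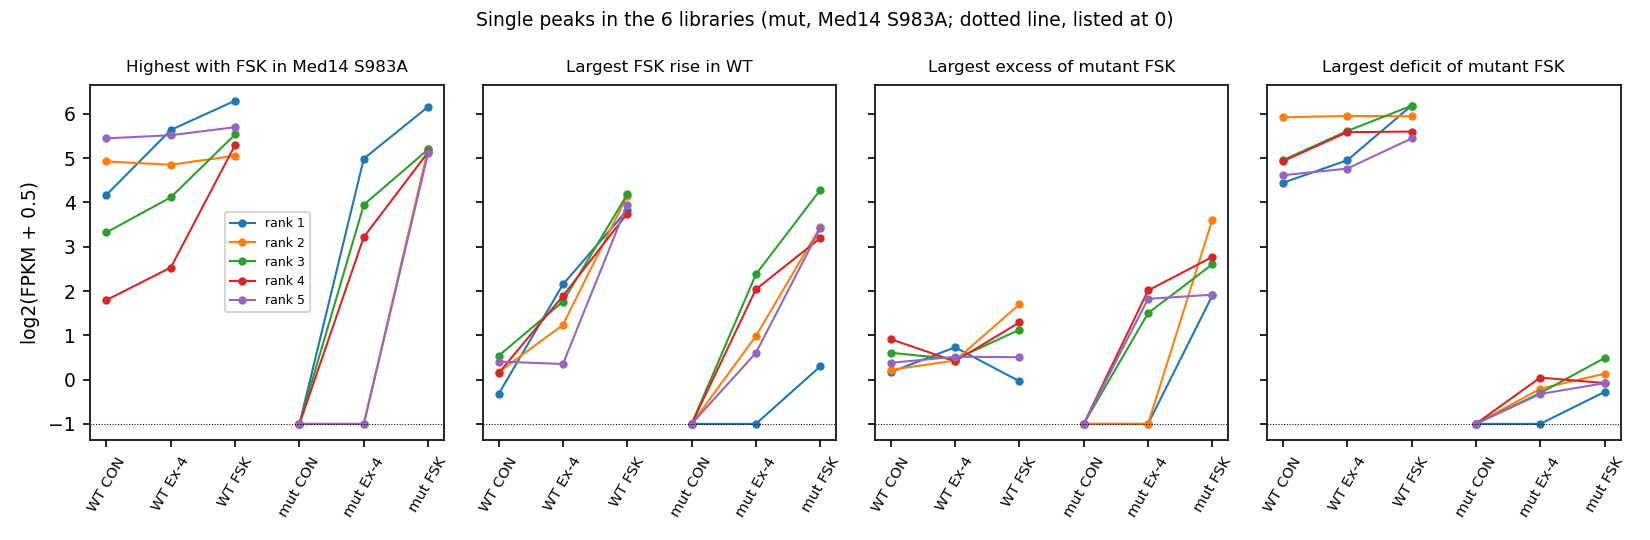
Levels on the log2(FPKM + 0.5) scale of single regained peaks in the 6 libraries (mut, Med14 S983A), in 4 groups of 5 peaks chosen by the size of one measure. Each line colour is 1 peak by its rank in its group, and points on the dotted line are listed at 0; the first group ends at 34.1 to 71.1 FPKM in Med14 S983A FSK and the last at 0.324 to 0.901 FPKM.

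A few peaks were higher with FSK in the mutant than in WT. The most extreme, at chr2:27485095-27485666 (571 bp), had 0.624 FPKM in WT CON, 1.16 in WT Ex-4 and 0.474 in WT FSK, against 3.23 FPKM (95% interval 2.88 to 3.62) in Med14 S983A FSK with Ex-4 listed at 0. At chr7:12729685-12730370 (685 bp) Med14 S983A FSK had 11.7 FPKM and WT FSK 2.75 FPKM, from 0.665 FPKM in WT CON. The other 3 of this group lay on chromosomes 12, 14 and 5 and were called with Ex-4 in the mutant.

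The opposite extreme held peaks that were strong in WT and barely called in the mutant. The peak at chr19:12734442-12735351 (909 bp) rose in WT from 21.3 FPKM in CON to 30.5 in Ex-4 and 72.4 in FSK, and had 0.324 FPKM in Med14 S983A FSK, from 48 reads. At chr4:160498248-160499103 (855 bp) WT was flat at 60.2, 61.5 and 61.2 FPKM, and the mutant had 0.366 FPKM with Ex-4 and 0.596 FPKM with FSK. All 5 peaks of this group had 43.1 to 72.4 FPKM in WT FSK and 0.324 to 0.901 FPKM in Med14 S983A FSK, so these peaks regained a call at a level far below WT. At the first of these, on chromosome 19, and the second, on chromosome 4, the next merged peak on either side was called in no mutant library, while at the others at least 1 adjacent peak was. Both neighbours on chromosome 19 were also listed at 0 in WT CON and WT Ex-4, with 2.11 and 5.44 FPKM in WT FSK. Those on chromosome 4 had 4.86 and 10.7 FPKM in WT CON. Reads alone cannot tell closed chromatin from DNA missing in the edited cells at these places, and DNA copy number was not measured.

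Regained peaks were narrower than shared ones and spread over the genome. Their median width was 357 bp (quartiles 254 and 508), beside 584 bp in peaks called in all 6 libraries and 323 bp in peaks called in no mutant library. The nearest peak called in all 6 libraries lay a median of 6.85 kb away, beside 10.7 kb for peaks called in no mutant library and 5.25 kb between the shared peaks themselves. Between chromosomes, regained peaks made up 3.41% (X) to 6.10% (chromosome 12) of WT-constitutive peaks. Along runs of 200 neighbouring WT-constitutive peaks the share went from 0% to 11%, with a median of 4.5% over 549 runs.

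Neighbouring regained peaks were few. Among WT-constitutive peaks in genome order, 605 of 5116 regained peaks (11.8%) stood next to another, while 8.72% of other WT-constitutive peaks stood next to a regained peak. In the order of all merged peaks the longest unbroken run was 3, found 4 times. The tightest, at chr2:252137333-252140854, spanned 3.52 kb and was not called with Ex-4 in the mutant; its peaks had 5.93, 7.92 and 5.21 FPKM in WT CON, 15.4, 12.4 and 2.52 FPKM in WT FSK and 2.29, 1.11 and 0.647 FPKM in Med14 S983A FSK. WT FSK was thus higher than WT CON at 2 of its peaks and lower at 1.

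The mirror class, called in all 3 mutant libraries and in WT FSK but not in WT CON, held 4856 peaks. With FSK these rose in the mutant by a median of 0.32 over CON. At least 2-fold higher were 1116 (23.0%), beside 4.56% of WT-constitutive peaks called in both mutant libraries, a set that holds no mirror peak. Over all peaks averaging 1 FPKM or more the share was 17.4%, but there a listed 0 entered as a level, so newly called peaks count as raised. Mirror peaks were narrower than regained ones, with a median of 269 bp, and 24.2% lay within 1 kb of a peak called in all 6 libraries, beside 13.4% of regained peaks.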

How the data were processed

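ATAC-seq was analysed in 6 INS-1 libraries, 1 per condition. Per the study's methods and the file header, the authors used Trim Galore for trimming and bwa mem for alignment to the rn6 build, removed mitochondrial, poorly mapped and duplicate reads with samtools, called peaks with macs2, merged the lists and computed FPKM with HOMER. The deposited FPKM values are relative to reads inside each library's own peaks: width times FPKM summed to 98.6% to 99.0% of the expected total. The number of reads in peaks per library was recovered from the steps between low values; all 3000 low values tested per library were whole within 0.15 reads. The table named the peak lists that hold each merged peak. No column was left unmapped (0), and the 3 mitochondrial peaks were left out.

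Peaks were grouped by these lists. Levels were compared as log2(FPKM + 0.5) with a 2-fold size rule and no test, since no condition had replicates. Backgrounds were all WT-constitutive peaks called in the libraries compared. For FSK against CON in either genotype all peaks averaging 1 FPKM or more were also used, with a listed 0 entered as a level. Intervals for single peaks were exact Poisson 95% intervals on the recovered reads. The work was done in Python 3.11.15 with pandas 2.3.3, numpy 2.4.6, matplotlib 3.10.9 and scipy 1.17.1. The size rule was checked on simulated counts with Poisson error only. These held no variation between cultures and no calling step, so the check covers neither. Alternatives changed the pseudocount, scaling, level minimum and fold. Single peaks were the 5 most extreme by level in Med14 S983A FSK (over all regained peaks and over those not called with Ex-4), by rise in WT, and by excess or deficit of the mutant with FSK, plus the longest run. The peaks and lists were chosen with earlier results of these data known. Genes and sequences at the peaks were not analysed here, since no rn6 genome or annotation was used.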

Additional observations from a re-analysis of the deposited data

Results flagged for a closer look

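At 40 regained peaks WT FSK was at least 2-fold lower than WT CON, whereas the mutant was called with FSK and not in CON. The mutant side is fixed by how the peaks were chosen and gives no measured change, and the difference between the genotypes was not tested, since each condition had 1 library. The number ranged from 0 with a 4-fold rule to 209 with a 1.5-fold rule, and was 78 and 21 with pseudocounts of 0.1 and 1. Their median levels were 4.09 FPKM in WT CON, 1.42 FPKM in WT FSK and 0.952 FPKM in Med14 S983A FSK, and 20 of the 40 were also called in Med14 S983A Ex-4. The largest fall in WT was at chr3:162240600-162241246 (646 bp), with 8.08 FPKM in WT CON, 4.71 in WT Ex-4 and 1.78 in WT FSK, against 0.370 FPKM in Med14 S983A FSK. The share of such peaks, 0.782%, was below the 5.48% of all WT-constitutive peaks.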

How the results depend on the processing

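No paired analysis was possible because there was 1 library per condition, and for the same reason no replicate could be left out. 1 alternative turned a direction: with a mutant call of at least 2 FPKM, regained to lost was 1.01 in place of 0.921. Over peaks called in all 6 libraries, the library median of Med14 S983A FSK minus that of WT FSK was -0.17, which centring removes, while the median of the differences peak by peak was 0.04. The median change of WT FSK over WT CON was 0.72 and 0.57 with pseudocounts of 0.1 and 1, 0.70 with centred libraries and with quantile normalization, and 0.88 at a mean of at least 3 FPKM; with choices made after seeing the data it was 0.37 at a WT CON of at least 3 FPKM and 0.77 without peaks under 200 bp. For Med14 S983A FSK minus WT FSK the values under these first settings were -1.05, -0.81, -0.75, -0.72 and -1.38, with -0.97 at a mean of at least 1 FPKM and -1.35 at a WT CON of at least 3 FPKM. For Med14 S983A FSK minus Ex-4 they were 0.36, 0.24, 0.41, 0.53 and 0.49, and 0.20 at a WT CON of at least 3 FPKM. WT Ex-4 minus WT CON was 0.106 and 0.0815 with the pseudocounts and 0.17 at a mean of at least 3 FPKM. With a 4-fold rule, 840 peaks were lower in Med14 S983A FSK than in WT FSK, 474 were higher in WT FSK than in WT CON and 0 lower. The 40 peaks lower in WT FSK became 78 and 21 with the pseudocounts and 209 with a 1.5-fold rule. At a WT CON of at least 3 FPKM, 24.1% were at least 2-fold higher in WT FSK, and regained to lost was 0.574. With at least 2 FPKM in Med14 S983A FSK, 2567 peaks remained, 69.1% of them called with Ex-4, and 1663 with that level in all 4 required libraries. The other 25 alternatives moved a value by less than its interval over peaks, or a count or ratio by less than 1.5 times. That interval treats the peaks as independent and is not the Poisson interval given for single peaks. It holds no variation between cultures, so a value kept within it cannot be taken as one that would recur in other libraries. Reads in peaks ranged from 134300000 to 251200000 between libraries, and the part of depth in the calls was not tested.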
